A study of Mus musculus with 20 samples.

Results

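Elane, Mpo, Prtn3, Ctsg, Ms4a3 and Fcnb are genes that granulocyte precursors in the bone marrow and spleen transcribe early, at about the promyelocyte stage. Their rows were picked by gene symbol from both expression tables of the study, which gave 6 of 26099 genes in the acute table and the same 6 of 26486 in the survival table. All 6 passed the filter on low values in both tables. The libraries come from mouse spleens filled with a transplanted T-cell acute lymphoblastic leukemia (T-ALL) in which the gene for ATP-citrate lyase, Acly, can be deleted with tamoxifen. Polyadenylated RNA was sequenced with strand-specific libraries from suspensions of whole spleen after red cells had been lysed, and the labels name no step that sorted the leukemic cells.

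Every one of the 20 libraries came from a sub-lethally irradiated mouse that received the conditional Acly T-ALL cells by vein, the controls included. The acute arm used mice whose leukemia was already overt, which were injected into the peritoneum with corn oil alone (control, 6 libraries) or with 3 mg of tamoxifen in corn oil (knockout, 4 libraries), and spleens were taken after 72 h. In the survival arm, the same injections were given 48 h after transplantation (5 control and 5 knockout libraries), and spleens were taken when the mouse reached its humane endpoint. The deletion lies in the transplanted leukemic cells, whereas granulocytes in these spleens can come from the host. Tamoxifen and deletion cannot be told apart, because no group received tamoxifen without a conditional leukemia. The sources used here give no age, sex or strain of the hosts and no driver of the recombinase. Whether the libraries come from different mice is not stated outright in the labels, so p-values measure the spread between libraries only.

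Neutrophils fill their granules in waves. Promyelocytes make the primary or azurophil granules, myelocytes then make the secondary granules, and later stages make gelatinase granules, so a transcript of primary granule cargo marks an immature cell and is nearly gone from mature neutrophils. Mpo encodes myeloperoxidase, which makes hypochlorous acid from hydrogen peroxide and chloride. Elane (neutrophil elastase), Prtn3 (proteinase 3) and Ctsg (cathepsin G) encode serine proteases of the same granule. Ms4a3 encodes a membrane protein with several spans that marks granulocyte-monocyte progenitors, and Fcnb encodes ficolin B, a lectin that recognises sugars on microbes. The transcription factors PU.1, C/EBP, MYB and RUNX1 are known regulators of promoters in this class.

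The bases before the RefSeq start sites of Prtn3, Elane, Mpo and Fcnb are shown with matches to the motifs searched. Any link between these letters and the levels measured here was not tested. Prtn3 and Elane lie side by side on chromosome 10, and both windows read in the same direction as the chromosome (GRCm38.p6, chr10:79879567-79879666 and chr10:79886212-79886311, plus strand). The Mpo window is chr11:87793534-87793783 on the plus strand, and the Fcnb window is chr2:28084879-28085008 on the minus strand. Each run is written 5′ to 3′ and ends with the last base before the start, and capitals mark matches to the motifs.
Prtn3: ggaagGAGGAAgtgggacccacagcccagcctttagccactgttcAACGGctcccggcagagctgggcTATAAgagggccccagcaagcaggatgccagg
Elane: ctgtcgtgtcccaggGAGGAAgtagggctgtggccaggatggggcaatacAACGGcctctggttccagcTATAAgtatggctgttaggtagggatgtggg
Mpo: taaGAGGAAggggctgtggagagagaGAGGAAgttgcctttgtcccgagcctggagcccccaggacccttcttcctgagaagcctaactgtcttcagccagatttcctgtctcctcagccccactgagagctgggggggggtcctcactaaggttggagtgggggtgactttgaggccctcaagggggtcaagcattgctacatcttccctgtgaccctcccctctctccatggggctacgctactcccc
Fcnb: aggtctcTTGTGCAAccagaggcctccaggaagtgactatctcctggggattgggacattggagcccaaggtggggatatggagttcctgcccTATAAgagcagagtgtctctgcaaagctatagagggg

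Prtn3 and Elane carried the same 3 motifs in the same order on the same strand. GAGGAA, the PU.1 letters searched, began 95 bases before the start in Prtn3 and 85 in Elane, AACGG (MYB) began at 55 and 50, and TATAA (TATA box) at 32 and 31. Fcnb held TATAA at 37 and was the only member with the C/EBP letters TTNNGCAA, at 123 and again at 235, outside the printed stretch. Mpo had GAGGAA at 247 and 224 and no TATAA, Ctsg had GAGGAA at 216, and Ms4a3 matched no motif. Searched on both strands in the 250 bases before the start, GAGGAA stood in 4 of 6 members and in 23.3% of all 32851 RefSeq promoters, TATAA in 4 of 6 and 22.8%, AACGG in 2 of 6 and 14.5%, TTNNGCAA in 1 of 6 and 9.56%, and TGNGGT (RUNX1) in 1 of 6 and 40.1%. A TATAA on the gene's own strand that began 25 to 40 bases before the start stood in 3 of 6 members and in 3.32% of all promoters. The motif letters were chosen with these sequences in view, no 2 printed matches overlap, and a match is a description of letters only.

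The deposited values are normalized counts, scaled by the authors within each table, so levels are compared within an arm only. Totals per library were 19432235 to 20731983 (acute) and 19998354 to 21623571 (survival). Acly, the targeted gene, lay at 7406 to 8280 normalized counts in acute controls and 4823 to 6402 in acute knockouts, and at 7396 to 8825 in survival controls and 2174 to 4017 in survival knockouts. Every knockout library was below every control library of its arm. The defining T-lineage genes were high in all groups: their summed level was 177306 to 189488 in acute controls, 111988 to 151556 in acute knockouts, 172719 to 180674 in survival controls and 162049 to 184664 in survival knockouts.

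At 72 h after tamoxifen all 6 genes were higher in the knockout spleens, by 7.99-fold (Fcnb) to 17.7-fold (Ctsg), and no knockout library overlapped with a control library for any of them. limma called 6 of 6 as higher, where 16.7% of the 16363 genes tested were called higher. Full separation of the groups in that direction was seen for 6 of 6 and for 12.7% of all genes tested. The median log2 fold change was 3.75 for the 6 genes and -0.023 for all genes tested. Fold changes are on the log2(normalized count + 1) scale, and adjusted p-values are from limma with Benjamini-Hochberg adjustment over all genes tested. In these bulk libraries, more cells of a type and more RNA per cell cannot be told apart.

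Mpo, the peroxidase gene, separated the acute groups fully. Its lowest, median and highest normalized counts in the 6 controls were 318, 598 and 2799, and the 4 knockouts had 8524, 18624, 12861 and 7800. The lowest knockout stood above the highest control. The means were 1022 ± 961 (SD, n = 6) and 11952 ± 4978 (SD, n = 4). The log2 fold change was 3.92 (SE 0.541, 95% interval 2.74 to 5.10, limma adjusted p = 0.000291), and the exact two-sided permutation test gave p = 0.00476, the smallest that 210 arrangements allow.

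The serine proteases rose with Mpo. Elane had 87.4, 210 and 1003 as lowest, median and highest control values and 1861, 4336, 2785 and 2092 in the knockouts. Its log2 fold change was 3.38 (SE 0.574, 95% interval 2.13 to 4.63, limma adjusted p = 0.00108; exact permutation p = 0.00952). Control 2, the highest control, and knockout 1, the lowest knockout, did not overlap. Prtn3 had 79.9, 179 and 658 in controls and 1751, 4557, 3049 and 2127 in knockouts, with a log2 fold change of 3.86 (SE 0.530, limma adjusted p = 0.000283). Ctsg had 47.9, 97.5 and 434 in controls and 1469, 3418, 2389 and 1793 in knockouts. Its fold change of 4.14 on the log2 scale (SE 0.531, 95% interval 2.99 to 5.30, limma adjusted p = 0.000177) ranked 28 among the rises of all 16363 genes tested, ahead of Mpo at 47 and Prtn3 at 60. Ranked by limma p-value instead, Ctsg stood at 434, Prtn3 at 552, Mpo at 565 and Elane at 1101. The exact permutation p was 0.00476 for Prtn3 and for Ctsg, the smallest possible.

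Fcnb and Ms4a3, which are no granule proteases, rose as well. Ms4a3 had 30.5, 46.8 and 185 as lowest, median and highest control values and 527, 1235, 787 and 588 in the knockouts. Its log2 fold change was 3.65 (SE 0.449, limma adjusted p = 0.000135; exact permutation p = 0.00476), a 12.6-fold rise. Fcnb had 108, 173 and 502 in controls and 1118, 2947, 1570 and 1128 in knockouts. Its log2 fold change of 3.00 (SE 0.414, 95% interval 2.10 to 3.90, limma adjusted p = 0.000291; exact permutation p = 0.00476) was the lowest of the 6, with rank 291 among all rises. Ranked by limma p-value, Ms4a3 stood at 375 and Fcnb at 563. Both genes kept every knockout above every control.

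**Figure D1:**
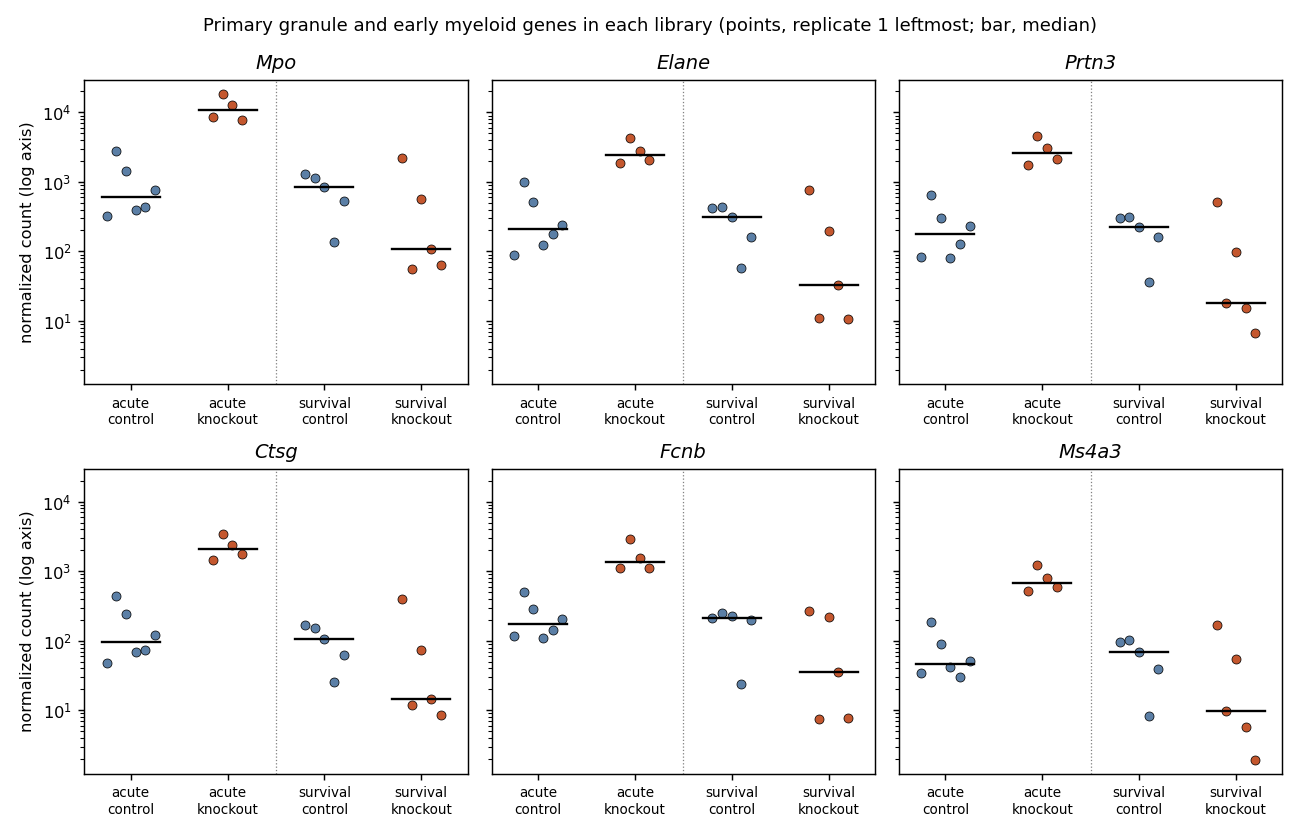
Normalized counts (log axis) of the 6 genes in each of the 20 libraries, controls in blue and knockouts in red, with replicate 1 leftmost and a bar at each group's median. The tables were scaled separately, so the arms are read apart. In the acute arm the 4 knockouts lie above all 6 controls for each gene, and in the survival arm knockout 1 is the highest knockout and knockouts 2, 4 and 5 the lowest.

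The libraries kept nearly the same order for all 6 genes. In the acute knockouts, replicate 2 was highest and replicate 3 second for 6 of 6 genes, and in the acute controls replicate 2 was highest and replicate 3 second for 6 of 6. The summed level of the 6 genes ran from 689 to 5582 normalized counts in acute controls (median 1298) and from 15250 to 35117 in acute knockouts (median 19485). The genes were far more variable within groups than most. Their SD on the log2 scale was 0.85 to 1.31 in acute controls and 0.53 to 0.66 in acute knockouts, where the median over all genes tested was 0.17 and 0.21. Without knockouts 2 and 3, the libraries in which markers of other cell types were also highest, the 6 genes were still called, at log2 fold changes of 2.53 (Fcnb, adjusted p = 0.00606) to 3.74 (Ctsg, adjusted p = 0.00469). limma then called 8.04% of 17248 genes as higher.

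Of the 15 ratios between pairs of the 6 transcripts, 7 did not overlap between acute control and knockout libraries and 8 did, while all 15 overlapped in the survival arm. The ratio of Ctsg to Fcnb was 0.407 to 0.865 in the 6 controls (median 0.614) and 1.16 to 1.59 in the 4 knockouts (median 1.42). Elane over Ctsg was 1.81 to 2.41 in controls (median 2.07) and 1.17 to 1.27 in knockouts (median 1.22), and Mpo over Fcnb was 2.71 to 5.57 and 6.32 to 8.19. None of these ratios overlapped between the groups. By contrast Mpo over Prtn3 was 3.30 to 4.95 in controls and 3.67 to 4.87 in knockouts, and Elane over Prtn3 overlapped too, at 1.05 to 1.72 and 0.913 to 1.06. The 15 pairs are built from the same 6 genes, so they are not separate results, and no share over other gene pairs was computed. The ratios are descriptions without a test, and a ratio shows unequal change, not which gene moved. Per kilobase of the longest GENCODE coding transcript, Mpo was first in all acute knockouts, at 2836 to 6772 normalized counts per kb, and Ms4a3 last at 522 to 1223. In acute controls Mpo (median 217 per kb) and Elane (213 per kb) were side by side within a spread of several-fold, and Ms4a3 was last at a median of 46.4 per kb.

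**Figure D2:**
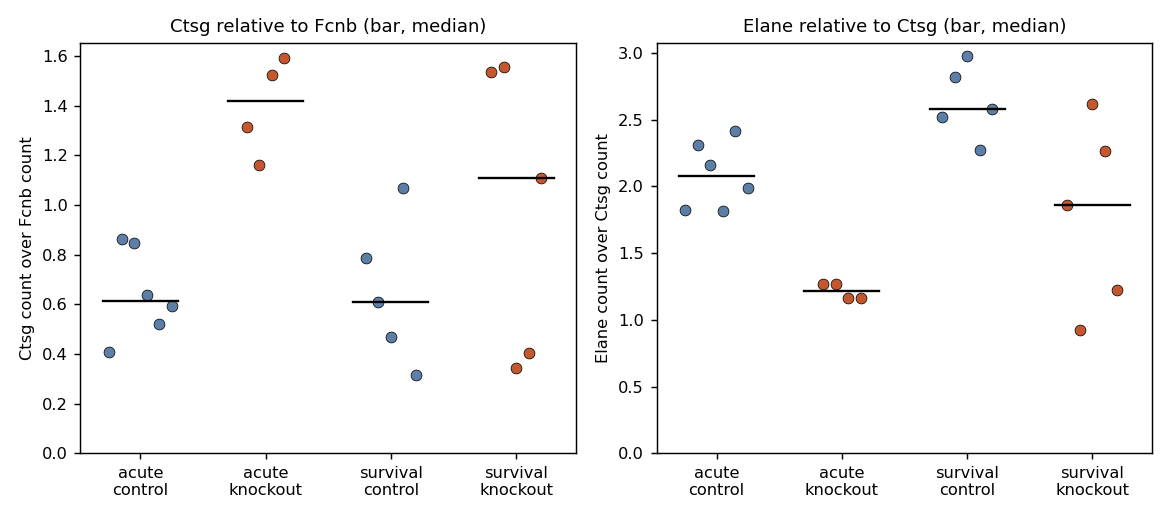
Ratio of the normalized counts of Ctsg to Fcnb (left) and of Elane to Ctsg (right) in each library, as points with a bar at the group's median. In the acute arm the knockouts lie above the controls for Ctsg to Fcnb and below them for Elane to Ctsg, while the survival groups overlap in both panels.

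In the survival arm the picture differed: the 6 genes were lower on average in the knockout libraries, with log2 fold changes of -2.01 (Prtn3) to -1.26 (Ctsg), but the knockouts disagreed widely among themselves and none passed the test. limma called 0 of 6, and 0 of 6 had an unadjusted p under 0.05. Of all 16136 genes tested in this arm, 0.0124% were called and 8.74% had an unadjusted p under 0.05. The median log2 fold change was -1.60 for the 6 genes and 0.0087 for all genes tested. These genes therefore stood among the most negative fold changes of the table, at ranks 8 (Prtn3), 9 (Elane), 14 (Fcnb), 26 (Mpo), 32 (Ms4a3) and 49 (Ctsg), without meeting the threshold. Ranked by limma p-value instead, which takes their wide spread into account, they stood at 1591 (Prtn3) to 4100 (Ctsg) of 16136.

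Prtn3 came nearest to the threshold. Its normalized counts were 301, 315, 226, 36.3 and 161 in controls 1 to 5 and 511, 18.2, 98.2, 15.4 and 6.77 in knockouts 1 to 5. The log2 fold change was -2.01 (SE 0.969, 95% interval -4.10 to 0.085, limma adjusted p = 0.594; exact permutation p = 0.127). Knockout 1 exceeded every control, whereas knockouts 2, 4 and 5 lay below every control. Elane had 419, 432, 315, 58.5 and 160 in controls and 753, 10.9, 196, 32.7 and 10.6 in knockouts, a log2 fold change of -1.93 (SE 1.03, 95% interval -4.14 to 0.29, limma adjusted p = 0.634). As for Prtn3, knockout 1 was above and knockouts 2, 4 and 5 were below all 5 controls.

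Mpo in the survival controls was 1313, 1124, 855, 134 and 527, and in the knockouts 2178, 56.8, 574, 108 and 63.1. The log2 fold change was -1.50 (SE 0.927, 95% interval -3.50 to 0.51, limma adjusted p = 0.674). Ctsg had 166, 153, 106, 25.8 and 62.2 in controls and 405, 11.8, 74.9, 14.4 and 8.70 in knockouts. Its group means were almost equal, 103 ± 59.5 and 103 ± 171 (SD, n = 5 each), because knockout 1 alone held most of the knockout total, and the mean log2 values differed by -1.26 (SE 0.895, limma adjusted p = 0.718). The interval of that difference ran from -3.19 to 0.67.

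Fcnb had 211, 251, 225, 24.1 and 197 normalized counts in the survival controls and 264, 7.59, 218, 35.8 and 7.85 in the knockouts. Its log2 fold change was -1.71 (SE 0.984, 95% interval -3.83 to 0.42, limma adjusted p = 0.658). Ms4a3 had 94.8, 103, 69.5, 8.21 and 38.8 in controls and 170, 9.93, 54.4, 5.78 and 1.94 in knockouts. Its log2 fold change was -1.39 (SE 0.988, 95% interval -3.53 to 0.74, limma adjusted p = 0.718). Knockouts 2 and 5 were below every control for Fcnb, and knockouts 4 and 5 for Ms4a3, while knockout 1 was above every control for both.

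The same libraries set the spread of all 6 genes. Knockout 1 was highest and knockout 3 second for 6 of 6 genes, and control 4 was the lowest control for 6 of 6. The ratio of the highest to the lowest library was 34.8 to 87.8 among knockouts and 6.46 to 12.5 among controls. Among survival knockouts the SD on the log2 scale was 2.27 to 2.65 for the 6 genes, against a median of 0.18 over all genes tested, and 99.8% of genes had a smaller SD than the lowest of the 6. Without knockout 1 the log2 fold changes were -2.91 (Prtn3) to -2.14 (Ctsg), with unadjusted p-values of 0.00164 to 0.0254 and adjusted p-values of 0.339 to 0.505 (limma). Without control 4 they were -2.55 (Prtn3) to -1.68 (Ctsg), with adjusted p-values of 0.435 to 0.625, so no call was gained either way.

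The fold changes of the 2 arms differed for each of the 6 genes in a fit with 1 variance per gene for all 4 groups. The 6 genes depart from that: their SD on the log2 scale was 0.53 to 0.66 in acute knockouts and 2.27 to 2.65 in survival knockouts. How far this alters the p-values below was not tested. The survival fold change less the acute one was -5.86 for Prtn3 (SE 1.23, adjusted p = 0.00199), -5.41 for Mpo (SE 1.20, adjusted p = 0.00302) and -5.40 for Ctsg (SE 1.15, adjusted p = 0.00232) in one limma fit over the 20 libraries. It was -5.31 for Elane (SE 1.31, adjusted p = 0.00693), -5.04 for Ms4a3 (SE 1.21, adjusted p = 0.00559) and -4.70 for Fcnb (SE 1.19, adjusted p = 0.00835). limma called 6 of 6 with the survival change below the acute change, and 10.9% of all 15673 genes tested in both tables in that direction. Prtn3 had the most negative difference of those 15673 genes, and Mpo, Ctsg and Elane had ranks 3, 4 and 5. By limma p-value the 6 genes ranked 849 (Prtn3) to 1437 (Fcnb). Without acute knockouts 2 and 3 the difference was no longer called for Elane (-4.90, adjusted p = 0.0599), Ms4a3 (-4.63, adjusted p = 0.0532) and Fcnb (-4.24, adjusted p = 0.0727).

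**Figure D3:**
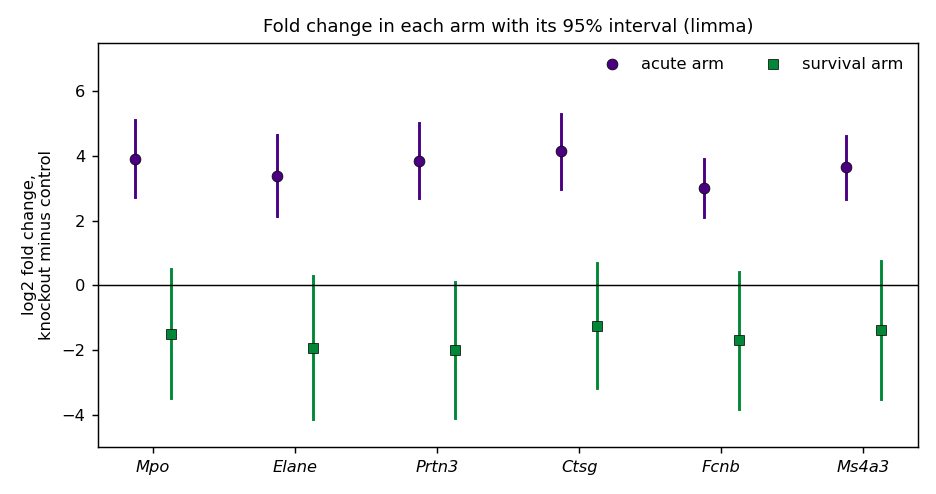
Log2 fold change of each gene, knockout minus control, in the acute arm (circles) and the survival arm (squares), with the 95% interval from limma. The acute intervals lie wholly above 0, from 2.10 at the lowest, and each survival interval includes 0.

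Transcripts of other proteins of the primary granule and its assembly did not all follow. Some were abundant and steady in acute controls: Prss57 ran from 1306 to 1484, Srgn from 1896 to 2283 and Unc13d from 2242 to 2538. Elane ran from 87.4 to 1003 in the same libraries, and Lyz2 from 1047 to 4413. Which cells these transcripts came from was not tested. Of 12 listed partners 11 were in the tables and tested, and in the acute arm 9 were called higher and 1 lower, with a median log2 fold change of 0.91. The shares over all genes tested were 16.7% higher and 14.7% lower. Without knockouts 2 and 3 there were 7 partners higher and 1 lower (median 0.69), where 8.04% of all genes tested were called higher. Under scaling to the T-cell receptor beta genes Trbc1 and Trbc2 there were 10 higher and 0 lower (median 1.28). The same scaling called 7355 of all 16363 genes tested higher (median 0.35). Serpinb1a, an inhibitor that shields the cell from its own granule proteases, rose from 244 ± 144 (SD, n = 6) to 2802 ± 1448 (SD, n = 4; log2 fold change 3.54, SE 0.377, limma adjusted p = 5.51e-05). Lyz2, lysozyme, rose by 3.70 (SE 0.383) and Cst7, cystatin F, by 2.59 (SE 0.365) on the log2 scale. Ctsc, cathepsin C, which activates the granule serine proteases by trimming their propeptides, rose by 0.96 (SE 0.140, limma adjusted p = 0.000424), and Srgn, the serglycin core protein that packs them, by 0.44 (SE 0.0996, limma adjusted p = 0.00587), a call that was lost without knockouts 2 and 3 (0.23, adjusted p = 0.0535). Prss57, a further serine protease of the same granule, was lower in the knockouts, at 1395 ± 58.8 in controls and 967 ± 59.1 in knockouts (log2 fold change -0.53, SE 0.0547, limma adjusted p = 4.91e-05), with no overlap. Its controls varied little, and after scaling to Trbc1 and Trbc2 it was -0.15 and not called (adjusted p = 0.213). Unc13d, needed for granule release, had a log2 fold change of 0.033 (limma adjusted p = 0.791), and 0.41 with that scaling (limma adjusted p = 0.0396). In the survival arm limma called 0 of 11 partners, with 1 at an unadjusted p under 0.05, Cst7 (log2 fold change 1.07, unadjusted p = 0.0201, adjusted p = 0.440), and their median was -0.026.

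Factors and receptors of early granulocyte and monocyte precursors split by gene. Of 14 such genes limma called 11 higher and 1 lower in the acute arm (median log2 fold change 2.50). The shares over all genes tested were 16.7% higher and 14.7% lower. Cebpe, the C/EBP factor that is needed beyond the promyelocyte stage, rose from 165 ± 93.9 to 1638 ± 881 (log2 fold change 3.31, SE 0.394, limma adjusted p = 0.000107). Cebpa, which commits cells to the granulocyte lineage, rose by 2.97 (SE 0.330), and Spi1, which encodes PU.1, by 3.08 (SE 0.292). Cd34, a surface marker of progenitors, rose from 10.5 ± 3.75 to 140 ± 57.2 (log2 fold change 3.58, SE 0.303, limma adjusted p = 3.84e-05), and the stem cell factor receptor gene Kit by 1.61 (SE 0.258). Csf3r, the receptor for granulocyte colony-stimulating factor, rose by 3.52 (SE 0.338). Gfi1, Runx1 and Myb, factors that early myeloid cells share with T-lineage cells, were not called higher. Gfi1 had a log2 fold change of -0.11 (limma adjusted p = 0.150), Runx1 one of -0.0038 (limma adjusted p = 0.980), and Myb fell by 0.28 on the log2 scale (SE 0.0664, limma adjusted p = 0.00831). After scaling to Trbc1 and Trbc2 these signs turned. That scaling called 7355 of all 16363 genes tested higher, with a median log2 fold change of 0.35. Gfi1 (0.26, limma adjusted p = 0.0410) and Runx1 (0.37, limma adjusted p = 0.0364) were then called higher, at values near that median. Myb was 0.10 (limma adjusted p = 0.204), and the list had 13 of 14 called higher and 0 lower. Without knockouts 2 and 3 Myb was -0.15 and not called (adjusted p = 0.148). In the survival arm 0 of 13 tested genes of this list were called, 2 had an unadjusted p under 0.05 (Myb at 0.27 and Csf1r at 0.36 on the log2 scale), and Cebpe had a log2 fold change of -1.40 (limma adjusted p = 0.669).

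Genes of later granules and of other myeloid cells moved beside the 6 genes, and their part in the result was not tested. Over all genes tested in the acute arm, 16.7% were called higher, and 8.04% without knockouts 2 and 3. Among the acute libraries limma called 10 of 10 secondary granule genes higher (median log2 fold change 3.70), among them Ngp (3.71, SE 0.373), which encodes neutrophilic granule protein, and Ltf (4.02, SE 0.380), which encodes lactoferrin. Likewise 10 of 10 late neutrophil genes were higher (median 3.72; 9 of 10 without knockouts 2 and 3), 8 of 8 monocyte markers (median 2.47; 5 of 8 without knockouts 2 and 3) and all 8 tested of 10 basophil, mast cell and eosinophil markers (median 3.74; 6 of 8 without knockouts 2 and 3). The summed level of the monocyte markers was 697 to 1699 normalized counts in acute controls and 5314 to 13738 in acute knockouts, and that of the basophil, mast cell and eosinophil markers 69.1 to 206 and 865 to 1971. In survival libraries the monocyte sum was 885 to 1069 in controls and 702 to 1194 in knockouts, where the sum of the 6 genes ran from 287 to 2506 and from 99.0 to 4282. limma called 0 genes of each of these lists in the survival arm, and 0 had an unadjusted p under 0.05.

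Set against the secondary granule genes, the 6 genes gave overlapping ratios in the acute groups. Per 100 normalized counts summed over the 10 secondary granule genes, the 6 genes had 6.58 to 16.7 in acute controls (median 7.96) and 7.86 to 11.6 in acute knockouts (median 9.28), so the groups overlapped although both sums were several-fold higher in knockouts. Per 100 counts of the late neutrophil genes they had 12.3 to 32.7 (median 17.3) and 16.2 to 24.7 (median 18.4), and per 100 counts of the monocyte markers 98.8 to 329 (median 124) and 236 to 287 (median 256). The medians thus lay further apart against the monocyte markers, although the ranges overlapped there as well. Against the secondary granule genes, controls 2 and 3 had 15.6 and 16.7, and the other 4 controls had 6.58 to 8.65. Survival controls had 18.1, 11.7, 10.5, 7.52 and 5.97, and survival knockouts 21.6, 5.56, 6.24, 3.66 and 5.25. Knockout 1 thus had the highest ratio of the survival arm, while knockouts 2, 4 and 5 were below all 5 controls. These ratios are descriptions without a test, and they rest on sums that Mpo dominates in the numerator, at 44.2 to 63.7% of the 6 genes in every library.

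**Figure D4:**
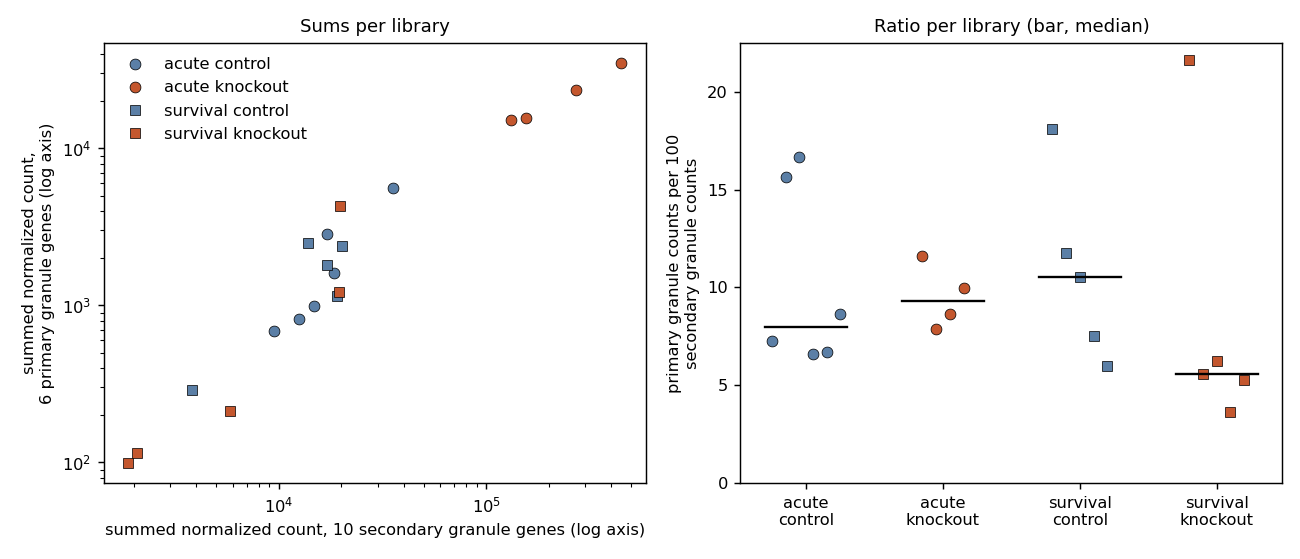
Left, summed normalized count of the 6 primary granule genes against that of 10 secondary granule genes in each library, both on log axes. Right, the first sum per 100 counts of the second, with a bar at each group's median: the acute groups overlap (6.58 to 16.7 and 7.86 to 11.6), and knockout 1 is highest in the survival arm at 21.6.

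Lymphoid markers also differed between the acute groups, and erythroid markers were not called. Over all genes tested, 16.7% were called higher in the acute knockouts, and 8.04% without knockouts 2 and 3. limma called 10 of 10 T-cell and thymocyte genes lower in the acute knockouts (median log2 fold change -0.44; 14.7% of all genes tested were called lower) and 8 of 8 B-cell genes higher (median 1.44; 4 of 8 without knockouts 2 and 3). For the red cell lineage, 0 of 8 erythroid genes were called, with 2 at an unadjusted p under 0.05 (median 0.41). Scaling to Trbc1 and Trbc2 gave 3 of 8 called higher (median 0.79), where 7355 of all 16363 genes tested were called higher (median 0.35). The erythroid median was -0.19 without knockouts 2 and 3, so the erythroid direction was not stable. After scaling to Trbc1 and Trbc2, 2 of the 10 T-cell genes were called lower, and without knockouts 2 and 3, 7 were. Trbc1 and Trbc2 are themselves on this list. That scaling makes their sum equal in all libraries, so it cannot test the direction of the T-cell genes. The B-cell sum was 1187 to 2277 normalized counts in acute controls and 2797 to 6342 in acute knockouts. Of 8 listed stem cell genes 5 were tested and 2 were higher (1 without knockouts 2 and 3), Hoxa9 (log2 fold change 3.66, SE 0.396) and Hlf (2.32, SE 0.539), both under 10 on average in controls. No marker present in the tables was at 0 in every library of a group, apart from Lpo, a peroxidase gene beside Mpo, in acute controls. Their part in the rise of the 6 genes was not tested.

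**Figure D5:**
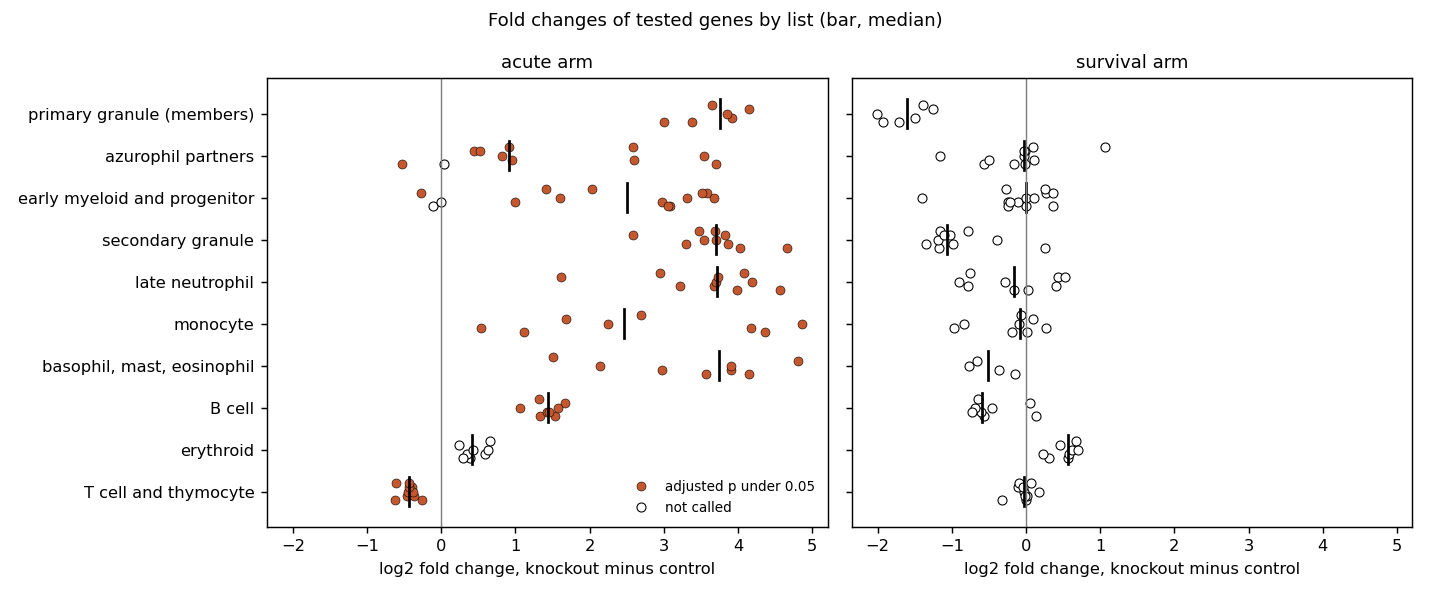
Log2 fold change of each tested gene, by list, in the acute arm (left) and the survival arm (right), filled where limma's adjusted p was under 0.05, with a bar at the list's median. In the acute arm the 6 primary granule genes lie at 3.00 to 4.14, and the T-cell genes lie below 0. In the survival arm no gene of any list is filled, and the 6 genes have a median of -1.60.

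Genes that lie next to the members, or belong to their families, were compared because neighbours can share regulation or reads. Of 16 listed, 11 were tested in the acute arm, and 7 were called higher and 0 lower (median log2 fold change 0.54), or 3 higher without knockouts 2 and 3. The shares called higher over all genes tested were 16.7%, and 8.04% without those knockouts. Gzmb, which encodes granzyme B, a relative of cathepsin G, rose from 19.4 ± 6.35 to 246 ± 173 (log2 fold change 3.35, SE 0.442, limma adjusted p = 0.000215), and its survival change lay 4.05 below the acute one (difference -4.05, SE 0.709, limma adjusted p = 0.000392). Ms4a6d rose by 2.09 (SE 0.285) and the B-cell gene Ms4a1 by 1.31 (SE 0.269), both relatives of Ms4a3. These 3 were named after their values were seen. On chromosome 10 beside Prtn3 and Elane, Med16, a Mediator subunit gene, had 1359 ± 59.4 and 1360.5 ± 152 normalized counts (log2 fold change -0.0045, limma adjusted p = 0.971), and R3hdm4 rose by 0.54 (SE 0.109). Fcna, the paralog of Fcnb that macrophages express, was at 312 ± 58.0 and 390 ± 115 (log2 fold change 0.29, limma adjusted p = 0.299). Ms4a6b, a relative of Ms4a3, rose by 0.37 (limma adjusted p = 0.0497), a value next to the threshold. The cathepsin G and granzyme genes and the elastase and proteinase 3 genes are each other's relatives, and the sources used here do not say how the authors' quantification shared reads between them.

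The genes whose library-to-library pattern was nearest to the 6, after each group's mean was removed, were Sgms2 (r = 0.98), Serpinb1a (0.97), Trem3 (0.96), Adgrg3 (0.95), Cebpe (0.95) and Pglyrp1 (0.94), over 20 libraries and among 15673 genes. Each r is a description, since libraries share their scaling and group structure. Deviations were not scaled within groups, so the survival knockouts weigh most, where the SD of the 6 genes was 2.27 to 2.65 on the log2 scale. Sgms2 encodes a sphingomyelin synthase, Trem3 a receptor of myeloid cells and Pglyrp1 a peptidoglycan recognition protein of neutrophil granules. Acute knockouts had higher levels of all 4 that are not on a list above: Sgms2 rose by 3.40 (SE 0.332), Trem3 by 3.62 (SE 0.377), Adgrg3 by 3.65 (SE 0.363) and Pglyrp1 by 3.71 (SE 0.383), and in the survival arm their log2 fold changes were -0.28, -0.88, -0.76 and -0.94, none called. Measured the same way, each member followed the mean of the other 5 at r = 0.93 (Fcnb) to 0.99 (Mpo). Prss57 (r = 0.52) and the protease activator gene Ctsc (r = -0.015) followed the 6 genes less closely or not at all.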

How the data were processed

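Spleen RNA of 20 libraries was analysed from 2 tables. The deposited values are a signal of normalized counts: per the submitters' processing notes, the authors quantified reads with kallisto 0.46.0 and normalized with DESeq on GRCm39. How transcripts were summed to genes, with which annotation and filter, is not given in the sources used here. At least 92.9% of values in each table lay more than 1e-06 from a whole number, so count models were not used, and depth in reads is unknown.

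From these values, log2(normalized count + 1) was computed for genes that reached 10 in at least 4 (acute) or 5 (survival) libraries. limma 3.58.1 in R 4.3.3 (lmFit, eBayes with trend, no covariate) gave two-sided p-values, adjusted by Benjamini-Hochberg over every tested gene, with calls made at under 0.05. The difference between arms was 1 contrast over 20 libraries with 4 group means. Exact permutation tests compared mean log2 values. The fit was tested on simulated data. No libraries were identical.

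Members and gene lists were chosen with earlier results of these data known. Named genes were the members, tested azurophil partner and progenitor genes, up to 4 of the most abundant genes of each other list, the 6 genes most like the members, and Acly; Lpo, Gzmb, Ms4a6d and Ms4a1 were named after their values were seen. The 12 listed partners include Bpi, which was not analysed here. Alternatives covered pseudocounts of 0.5 and 5, filters (none, 50), quantile, equal-total and T-cell receptor beta scaling, the variance model, the replicate number and left-out libraries. Promoter sequences are from RefSeq (GRCm38.p6), matched by symbol for 6 of 6 members. Python 3.11.15 and matplotlib 3.10.9 drew the figures.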

Additional observations from a re-analysis of the deposited data

Results flagged for a closer look

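In the survival knockouts, replicate 1 stood far above the other 4 libraries for Elane (753 normalized counts), Mpo (2178), Prtn3 (511) and Ctsg (405). In the survival controls, replicate 4 stood far below the other 4 for Fcnb (24.1). These are 5 of 24 sets of libraries examined with Dixon's criterion, and the 6 genes share their libraries. Chance marks about 1 in 20 sets if values are normally distributed. The criterion was applied to normalized counts and not to the log2 values of the fits, so the marks hold on that scale only.

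The survival fold change differed from the acute fold change for Elane (-5.31), Mpo (-5.41), Prtn3 (-5.86), Ctsg (-5.40), Ms4a3 (-5.04) and Fcnb (-4.70), each as a log2 difference called by limma over 20 libraries. That fit gave each gene the same variance in all groups, which the spread of the 6 genes departs from.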

How the results depend on the processing

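The 6 genes kept their acute call in 126 of 126 combinations of gene and alternative (log2 fold changes 2.53 to 4.52, adjusted p 1.23e-05 to 0.0237) and stayed uncalled and negative in the survival arm in 120 of 120 (-2.91 to -0.73, adjusted p 0.327 to 0.929). The difference between arms kept its call in 183 of 186 (-6.77 to -4.12). The exceptions were Elane (-4.90), Ms4a3 (-4.63) and Fcnb (-4.24) without acute knockouts 2 and 3.

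Over all genes, limma called 5140 in the acute arm (2731 higher, 2409 lower), 3294 with the replicate block (2108 and 1186) and 2079 without knockouts 2 and 3 (1386 and 693). Leaving out 1 library gave 3671 to 5510. Quantile normalization gave 2331 higher and 4106 lower (median of all genes -0.13), and scaling to Trbc1 and Trbc2 gave 7355 and 94 (median 0.35), so small changes took their direction from the scaling. Of 2 genes called in the survival arm there were 4 with a filter at 50, 1 with Trbc scaling, 11 with array weights and 1 to 23 with 1 library left out, 23 without control 4. The difference was called for 3173 genes, 6956 with Trbc scaling (59 higher, 6897 lower), 1251 without knockouts 2 and 3 (375 and 876) and 2238 to 3580 with 1 library left out; quantile normalization gave 2502 and 1519, against 1471 and 1702. The cause of these shifts was not tested.

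Over all genes tested, same-numbered libraries did not deviate together (r -0.066 to 0.142 over 4 acute pairs, -0.020 to 0.128 over 5 survival pairs). In these arms 2 and 1 libraries were nearest to their own number, so the numbers were not read as a pairing. For the 6 genes alone, replicate 2 was highest and replicate 3 second in both acute groups. The replicate block lowered their acute SEs, from 0.414 to 0.164 for Fcnb and from 0.574 to 0.357 for Elane. In the survival arm their unadjusted p-values were then 0.0108 (Prtn3) to 0.0586 (Fcnb), and adjusted p-values 0.370 to 0.539 (limma). The block changed no call of the 6 genes.

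Scalings of the related lists were added after the values were seen. Under Trbc scaling Myb was 0.10, Gfi1 0.26 and Runx1 0.37, where the median over all genes was 0.35. Unc13d was -0.12 without knockouts 2 and 3. The depth in reads is unknown, and values of a few normalized counts, as for Ms4a3 in survival knockouts 4 and 5, are the least precise.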

Other observations

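Acly and the 6 genes can be set side by side within the knockout groups. In the acute knockouts Acly was 5226, 6228, 6402 and 4823 normalized counts in replicates 1 to 4, and the summed level of the 6 genes was 15250, 35117, 23442 and 15528. In the survival knockouts Acly was 4017, 2174, 3523, 3025 and 2718 in replicates 1 to 5, and the summed level was 4282, 115, 1216, 213 and 99.0. The acute libraries with the most Acly (3 and 2) and the survival libraries with the most Acly (1 and 3) also had the most of the 6 transcripts in their group. Lower down the orders differed. Acute knockout 4 had the least Acly and knockout 1 the lowest sum, and survival knockout 2 had the least Acly and knockout 5 the lowest sum. Markers of other cell types were also highest in acute knockouts 2 and 3. A link between Acly and the 6 genes was not tested. With 4 and 5 libraries no correlation was computed.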
